A study of Mus musculus with 6 samples.

Results

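Tetraspanins are small proteins that cross the membrane 4 times and gather integrins, immune receptors and proteases into membrane microdomains. Of this family, 10 members were examined in macrophages of the brain borders: Cd81, Cd9, Cd63, Cd37, Cd53, Cd82, Cd151, Tspan3, Tspan4 and Tspan14. They were chosen by gene symbol, with earlier results of the same comparison of ages in view. The values that chose them are therefore the CPM values (counts scaled to the total of each library) at 18 and 2 months of age, and these values are given as a description. No p-value is given for any of the 10, and counts of calls among them stand only beside the share over all genes. The rule took 10 of the 35598 gene identifiers in each table, and 21 other tetraspanin genes were measured beside them. All 10 passed the low-count filter, which left 10661 genes for the comparison, and the smallest count of any of the 10 in a library was 5.

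CNS-associated macrophages (CAMs), which reside around vessels, in the meninges and in the choroid plexus, were sorted from brains of male C57BL/6 mice as CD3-, CD11b+, CD45+ and CD206+ cells. The aged group held 3 libraries from mice aged 18 months, and the young group held 3 libraries from mice aged 2 months. The labels give no allele, treatment or injury for either group, although the series title names stroke in aged animals. Whether each library came from its own animal is not in the labels. A p-value here therefore weighs a difference between groups against the spread among these libraries, and that spread may be technical. In sorted bulk RNA, more cells of a type and more RNA per cell cannot be told apart.

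Tetraspanins bind partner proteins directly and bind each other through the membrane, which places receptors, integrins and their signalling enzymes side by side. Cd81, Cd9 and Cd63 are best known as surface markers of extracellular vesicles, and Cd63 is mainly a protein of late endosomes and lysosomes. In macrophages, Cd9 and Cd81 are known to restrain cell fusion, while Cd37 and Cd53 are largely restricted to leukocytes.

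Estimated counts summed to between 30044365 and 32902652 in the aged libraries and to between 26605079 and 33306121 in the young libraries. The number of genes with 5 or more counts ran between 9875 and 12543 per library. Of the genes that define the sort, Mrc1, which encodes CD206, was at 2334, 1176 and 1300 CPM in the aged libraries, against 2757, 2926 and 2662 CPM in the young ones, and Itgam (CD11b) was present in all 6. Ptprc (CD45) was at 588, 309 and 252 CPM in aged libraries, against 321, 299 and 327 CPM in young ones. For CD3, the negative marker, Cd3g was at 66.2, 0.0258 and 0.0704 CPM in aged libraries, against 29.4, 12.9 and 0.534 CPM in young ones. Cd3d was at 59.2, 8.56 and 0.0352 CPM in aged libraries, against 0, 6.15 and 0.0356 CPM in young ones. Cd3e reached 3.91 CPM in aged replicate 1. Across genes, the log2 CPM of 2 libraries correlated at 0.705 to 0.783 within a group and at 0.680 to 0.759 between groups. Aged replicate 2 stood apart in several of the values below.

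The sequence upstream of the RefSeq start is shown for Cd81, Cd9 and Cd63, and for Cd53, the member at the highest per-length level, because these 4 genes hold most of the summed level described below. Each window holds the 200 bases from 250 to 51 bases before the start in GRCm38.p6 and is written 5′ to 3′ on the strand of the gene. Capitals mark a GC box (GGGCGG) or the core of a PU.1 motif (GAGGAAG), searched on both strands together with an E box (CACGTG) and a TATA box (TATAAA). PU.1 is the lineage-determining transcription factor of macrophages, and the GC box is the motif bound by Sp1. The Cd81 window is chr7:143052500-143052699 on the + strand, Cd9 is chr6:125494811-125495010 on the - strand, Cd63 is chr10:128909095-128909294 on the + strand, and Cd53 is chr3:106790200-106790399 on the - strand.
Cd81: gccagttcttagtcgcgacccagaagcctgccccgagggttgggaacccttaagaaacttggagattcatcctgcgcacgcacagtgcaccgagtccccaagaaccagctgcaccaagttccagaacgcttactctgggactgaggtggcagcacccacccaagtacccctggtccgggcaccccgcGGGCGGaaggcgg
Cd9: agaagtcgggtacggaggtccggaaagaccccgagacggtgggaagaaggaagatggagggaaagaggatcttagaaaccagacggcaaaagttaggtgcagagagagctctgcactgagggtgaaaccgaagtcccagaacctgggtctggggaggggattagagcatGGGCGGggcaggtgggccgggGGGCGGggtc
Cd63: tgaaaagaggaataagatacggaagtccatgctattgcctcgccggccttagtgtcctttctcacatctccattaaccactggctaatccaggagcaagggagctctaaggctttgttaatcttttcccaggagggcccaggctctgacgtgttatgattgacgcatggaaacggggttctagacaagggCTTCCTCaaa
Cd53: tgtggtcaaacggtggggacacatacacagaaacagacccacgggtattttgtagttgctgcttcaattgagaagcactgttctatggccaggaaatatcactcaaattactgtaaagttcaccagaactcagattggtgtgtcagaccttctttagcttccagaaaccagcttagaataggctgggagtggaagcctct

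The Cd81 window had a GC content of 62.5% and 12 CpG dinucleotides, and the Cd9 window 60.5% and 10. The Cd63 window had 49.0% and 6, and the Cd53 window 45.0% and 2, against medians of 51.5% and 4 over 32851 windows of the same length. A single GC box was found for Cd81, starting 63 bases before the start, and 2 for Cd9, at 81 and 60 bases. A GC box was present in 24.6% of all windows. The Cd63 window held no GC box but 1 PU.1 core on the reverse strand, 60 bases before the start, a motif present in 8.12% of windows. None of the motifs was found in the Cd53 window. E boxes occurred in 4.34% and TATA boxes in 9.14% of all windows and in none of these 4. These matches describe letters only, and no binding data were used. The Cd9 window overlaps an annotated exon of Gm26728, a transcript of the opposite strand. The Cd63 window lies inside the GENCODE M21 interval of Cd63, which starts at 128900989. It precedes the RefSeq start used here, and not the start of that interval.

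Of the tetraspanins known from vesicles, Cd81 and Cd9 were higher in every aged library than in any young one, and Cd63 was higher by a narrow margin. Of the leukocyte tetraspanins, Cd53 was the most abundant member and its groups overlapped. The groups of Cd37 overlapped through 1 aged library. Among the remaining members, Cd82 was higher in every aged library at a low level, and the groups of Cd151, Tspan3, Tspan4 and Tspan14 overlapped.

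Cd81, which encodes a scaffold for integrins and Ig-superfamily proteins, had a log2 fold change above those of the other 9 in the fit used throughout (ENSMUSG00000037706.17, mm10 chromosome 7, 143052739 to 143067934, + strand). It measured 535, 1447 and 703 CPM in the 3 aged libraries, against 185, 222 and 213 CPM in the 3 young libraries. The lowest aged library was 2.41 times the highest young one, and aged replicate 2 was the highest of all. Cd81 averaged 895 ± 485 CPM in aged and 207 ± 19.4 CPM in young libraries (SD, n = 3 each), a log2 fold change of 2.12 (SE 0.41). Without aged replicate 2 the log2 fold change was 1.59. Cd82 lay above Cd81 in limma-voom (2.38 for Cd82, 2.03 for Cd81), with a replicate block (2.53 and 1.98) and without aged replicate 2 or young replicate 1. The young libraries differed among themselves by 1.20 times from lowest to highest and the aged ones by 2.71 times, so the spread lay in the aged group.

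Cd9 encodes a partner of integrins and of the Ig-superfamily EWI proteins and lies on chromosome 6 (ENSMUSG00000030342.8, 125460266 to 125494791, - strand). Its level was 791, 1374 and 1688 CPM in aged libraries, against 688, 165 and 479 CPM in young libraries. The groups did not overlap, but the lowest aged library was only 1.15 times the highest young one. The means were 1285 ± 455 CPM in aged and 444 ± 263 CPM in young libraries (SD, n = 3 each), and the log2 fold change was 1.53 (SE 0.51). Unlike Cd81, Cd9 varied most among the young libraries, by 4.16 times, with young replicate 2 the lowest. Its order among the aged libraries was also different, with aged replicate 3 the highest.

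Cd63, the lysosomal and vesicle tetraspanin (ENSMUSG00000025351.14, chromosome 10, 128900989 to 128912822, + strand), was the steadiest of the 3. It was at 717, 1085 and 921 CPM in the aged group, against 632, 624 and 705 CPM in the young group. The lowest aged library exceeded the highest young one by a factor of 1.02, and the groups overlapped in CPM without TMM scaling and in TPM. Mean levels were 907 ± 185 CPM in aged and 654 ± 44.5 CPM in young libraries (SD, n = 3 each). The log2 fold change was 0.47 (SE 0.28), between 0.33 and 0.66 over the other settings.

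**Figure D1:**
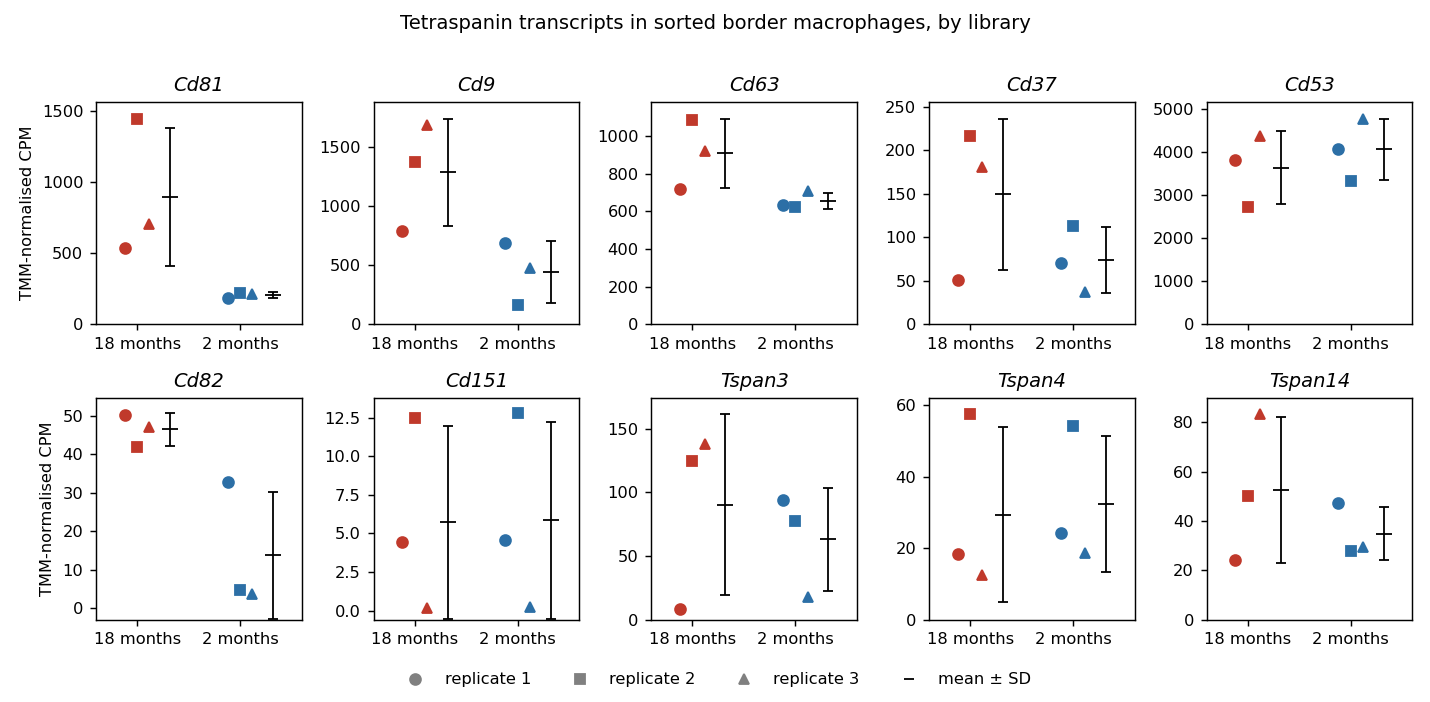
Level of each of the 10 tetraspanin genes in TMM-normalised CPM (y axes, a separate scale per gene) in the 3 aged (18 months) and 3 young (2 months) libraries (x axis). Marker shapes are replicate numbers, and bars are means ± SD. Cd81, Cd9, Cd63 and Cd82 show no overlap between the groups, with a gap of only 1.02 times for Cd63, and the other 6 overlap.

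Of the leukocyte tetraspanins, Cd53, which is found across white blood cells (ENSMUSG00000040747.9, chromosome 3, 106759921 to 106790149, - strand), had the highest level of the 10 in every library. It was at 3827, 2720 and 4385 CPM in aged libraries, against 4087, 3342 and 4777 CPM in young libraries. The groups overlapped, aged replicate 2 was the lowest library, and young replicate 3 the highest. The means were 3644 ± 848 CPM in aged and 4069 ± 718 CPM in young libraries (SD, n = 3 each), with a log2 fold change of -0.16 (SE 0.29). Its sign was not stable: the value was 0.02 without aged replicate 2 and 0.14 in log2(TPM + 1). Cd37, a tetraspanin of B cells and antigen-presenting cells that is known to restrain leukocyte signalling (ENSMUSG00000030798.15, chromosome 7, 45233632 to 45239115, - strand), measured 50.9, 217 and 180 CPM in aged libraries, against 70.6, 113 and 37.4 CPM in young libraries. Aged replicates 2 and 3 lay above all young ones and aged replicate 1 lay below 2 of them. The log2 fold change of Cd37 was 1.02 (SE 0.60), from means of 149 ± 87.1 CPM in aged and 73.8 ± 38.0 CPM in young libraries (SD, n = 3 each). Without aged replicate 2 it was 0.65.

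Cd82, first known as the metastasis suppressor KAI1 and a partner of integrins and growth factor receptors (ENSMUSG00000027215.13, chromosome 2, 93419111 to 93463140, - strand), was at 50.2, 41.9 and 47.0 CPM in aged libraries. In young libraries it was at 32.8, 4.82 and 3.67 CPM. The aged libraries were close together and above all young ones, whereas young replicate 1 held several times the level of the other two. Cd82 averaged 46.4 ± 4.19 CPM in aged and 13.8 ± 16.5 CPM in young libraries (SD, n = 3 each), a log2 fold change of 1.75 (SE 0.96). Without young replicate 1 this value was 3.46, so the size of the difference rested on 1 library, although its sign did not. Estimated counts of Cd82 were 1453, 1626 and 1337 in aged libraries, against 1029, 130 and 103 in young libraries.

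Cd151 encodes a close partner of laminin-binding integrins and lies next to Tspan4 on chromosome 7 (ENSMUSG00000025510.14, 141467392 to 141471473, + strand). It was the least abundant member, at 4.46, 12.5 and 0.176 CPM in aged libraries, against 4.56, 12.8 and 0.214 CPM in young libraries. Both groups spanned the same range, and 1 library of each group rested on 5 or 6 counts. The log2 fold change was -0.03, with an SE of 1.97, so a difference of several-fold in either direction could not be detected at this spread. Its sign turned when a library was left out, with values between -1.32 and 1.24.

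Tspan4, known in cultured cells for its part in migrasomes (ENSMUSG00000025511.15, chromosome 7, 141475240 to 141493427, + strand), measured 18.4, 57.5 and 12.4 CPM in aged libraries. In young libraries it measured 24.2, 54.1 and 18.8 CPM. The groups overlapped throughout, and the log2 fold change of -0.14 (SE 0.84) ranged from -1.06 to 0.45 when a library was left out. Tspan3, described in myelin and in blood stem cells (ENSMUSG00000032324.11, chromosome 9, 56131725 to 56165477, - strand), was at 8.58, 124 and 138 CPM in aged libraries, against 94.0, 77.7 and 17.7 CPM in young libraries. Here 1 aged library was the lowest of all and the other two were the highest, and the log2 fold change was 0.52 (SE 0.91). That value was 0.073 without aged replicate 3, 0.21 without aged replicate 2, 0.079 without young replicate 3, 0.93 without young replicate 1 and 1.06 without aged replicate 1.

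Tspan14 encodes a member of the TspanC8 subgroup, which escorts the protease ADAM10 out of the endoplasmic reticulum (ENSMUSG00000037824.6, chromosome 14, 40906445 to 40966807, - strand). Its level was 24.2, 49.97 and 83.3 CPM in aged libraries, against 47.2, 27.9 and 29.7 CPM in young libraries. The groups overlapped, since aged replicate 1 was the lowest of the 6, and the log2 fold change was 0.59 (SE 0.65). It was 0.088 without aged replicate 3 and 0.94 without aged replicate 1. Adam10 itself averaged 75.3 ± 19.9 CPM in aged and 115 ± 36.0 CPM in young libraries (SD, n = 3 each), with a log2 fold change of -0.61 (SE 0.43, edgeR quasi-likelihood test, adjusted p = 0.974). Adam10 was named after its values were seen.

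Across the 10 genes, 7 log2 fold changes were positive and 3 negative, with a median of 0.55, against a median of -0.02 over all 10661 genes tested. By edgeR's quasi-likelihood test at an adjusted p under 0.05, 0 of the 10 were called, where 0.00938% of all genes tested were. At an unadjusted p under 0.05, 2 of the 10 were past the threshold (Cd81 and Cd9), against 5.67% of all genes. The DESeq2 Wald test called 1 of the 10 (Cd81), against 1.64% of the genes it gave an adjusted p, and limma-voom called 0 of the 10, against 0% of all genes. With edgeR restricted to genes averaging 50 CPM or more, 1 of the 6 members kept was called (Cd81), against 1.14% of the genes kept. Every aged library lay above every young one for 4 of the 10, against 7.54% of all genes tested and 11.2% of genes averaging 50 CPM or more. For 0 of the 10 every aged library lay below every young one, against 7.19% of all genes. Since the same contrast chose the 10 genes, nothing is read from these shares. Without aged replicate 1, Cd37, Tspan3 and Tspan14 also had no overlap, which made 7 of the 10. With fewer libraries a lack of overlap is easier to reach. The share over all genes was not computed for that setting, so nothing is read from this count either.

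**Figure D2:**
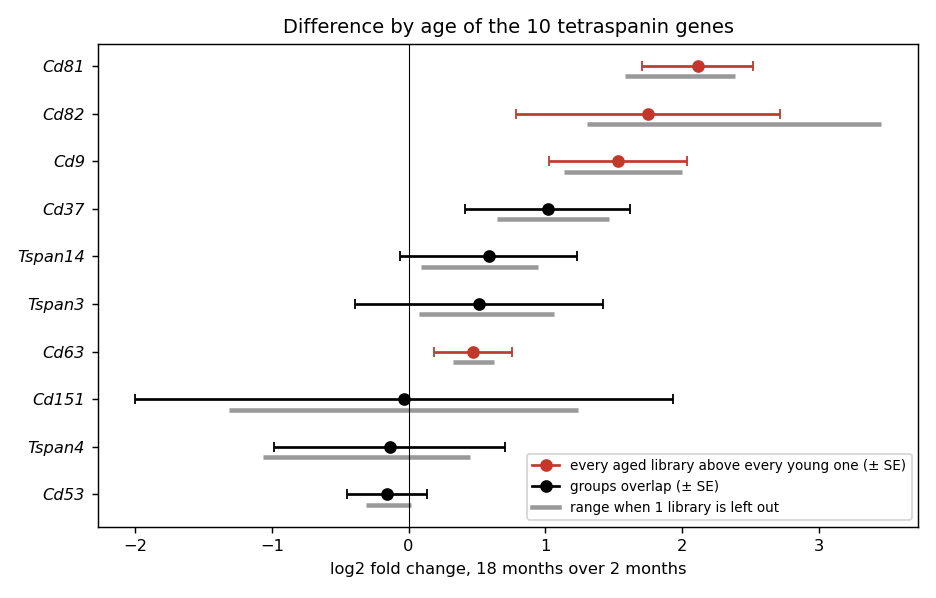
Log2 fold change of the 10 genes, 18 months over 2 months (x axis), with the SE as thin bars, and below each the range when 1 library at a time is left out as grey bars. Cd81, Cd82 and Cd9 have the highest values (2.12, 1.75 and 1.53), the grey bars of Cd53, Cd151 and Tspan4 cross 0, and that of Cd82 reaches 3.46.

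Levels of different genes were compared per length, in TPM (counts scaled for length and then for depth). Cd53 was first of the 10 in all 6 libraries, at 1086, 1246 and 1302 TPM in aged libraries, against 1060, 930 and 1349 TPM in young libraries. It made up 53.7%, 29.1% and 44.1% of the summed TPM of the 10 in aged libraries, against 58.6%, 61.3% and 66.5% in young libraries. The aged shares of Cd53 thus all lay below the young ones, while its own level overlapped between the groups.

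Cd81 made up 8.52%, 21.2% and 8.62% of the summed TPM in aged libraries, against 3.13%, 4.72% and 3.30% in young libraries. Cd9 made up 16.3%, 21.5% and 25.0% in aged libraries, against 14.7%, 4.51% and 9.64% in young libraries. The share of Cd63 overlapped, at 18.4%, 20.5% and 16.3% in aged libraries, against 17.6%, 21.6% and 18.6% in young libraries. Below Cd53, the order by mean TPM in aged libraries was Cd9 (663 ± 302), Cd63 (577 ± 266) and Cd81 (444 ± 401), whose ranges overlapped. In young libraries it was Cd63 (341 ± 31.7), Cd9 (177 ± 100.4) and Cd81 (65.1 ± 7.70; SD, n = 3 in each case). There Cd63 lay above Cd9 in every library, and Cd9 and Cd81 were nearly level in young replicate 2, at 68.5 and 71.7 TPM. Cd37 held the fifth place in all 6 libraries, and no other member passed 55.1 TPM.

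The 10 genes together summed to 6026, 7129 and 8159 CPM in aged libraries, against 5866, 4644 and 6281 CPM in young libraries, and the groups overlapped. Without Cd53 the sums were 2199, 4409 and 3773 CPM in aged libraries, against 1779, 1302 and 1504 CPM in young libraries, with no overlap. In the fit on log2(TPM + 1), which also used another gene set (9351 genes) and limma-trend, the median of all genes lay 0.25 above that of the CPM fit on the log2 scale. Cd81 was at 172, 905 and 254 TPM in aged libraries, against 56.7, 71.7 and 67.1 TPM in young libraries, and its log2 fold change in that fit was 2.38.

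**Figure D3:**
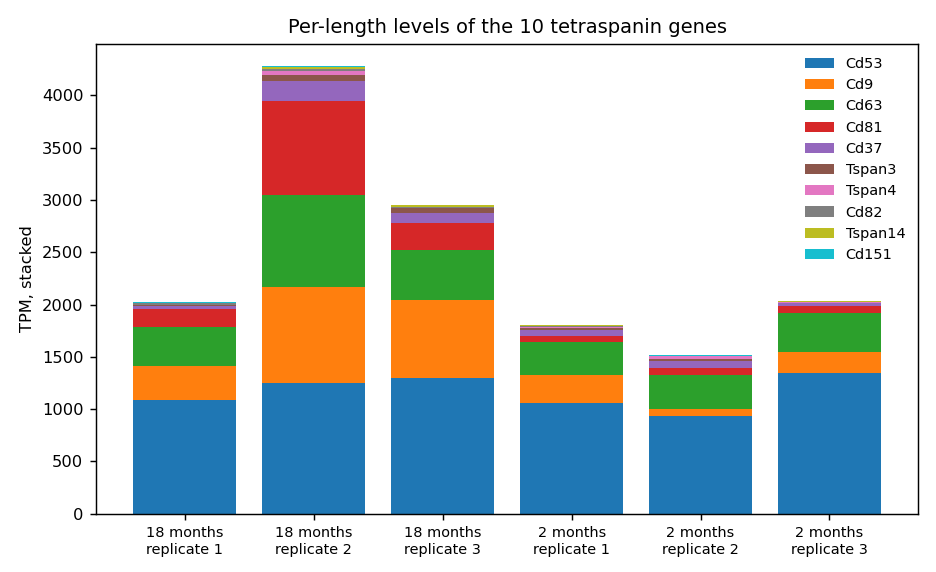
Stacked TPM of the 10 tetraspanin genes (y axis) in each aged and each young library (x axis). Cd53 is the tallest block in every library, the summed height is between 2023 and 4278 TPM at 18 months and between 1517 and 2030 TPM at 2 months, and aged replicate 2 has the tallest bar.

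The authors' tables also gave the abundance-weighted transcript length of each gene, which moves when the mix of transcripts moves. For Cd81 it was 1530, 1278 and 1405 bases in aged libraries, against 1531, 1531 and 1530 bases in young libraries. Aged replicates 2 and 3, the libraries with the most Cd81, thus had shorter weighted lengths, while aged replicate 1 matched the young ones. GENCODE M21 annotates 6 Cd81 transcripts, 3 of them protein coding and 3 with a retained intron, and the tables do not give the level of each. The longest Cd81 length was 1.20 times the shortest, and among 2181 genes averaging 50 CPM or more the median of this ratio was 1.13, with 54.5% at 1.1 or above. Cd53, at 1742 bases, and Cd9, at 1224 to 1226 bases, had nearly the same length in all libraries. Among low-abundance members the length of Cd82 ranged between 1544 and 1706 bases in aged libraries, against 799 and 1708 bases in young libraries.

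The library kit did not mark strand, so reads from a member and from a gene on the opposite strand could not be told apart where the 2 overlap. R74862 overlaps Cd81 and reached at most 1.5004% of the Cd81 level, and Gm26728 overlaps Cd9 and reached at most 0.314% of Cd9. The neighbour was thus far below the difference in level between the groups for both members. For Tspan4 it was not, because Chid1 overlaps it and stood at 4.71%, 35.7% and 211% of the Tspan4 level in aged libraries, against 60.6%, 45.4% and 1.90% in young libraries. Tead2 reached 24.7% of Cd37 in young replicate 3, and Gm10575 reached 20.98% of Cd151 in young replicate 1. These ratios compare whole genes, whereas only reads in the shared bases are affected. Tead2 ends at 45233644 and Cd37 starts at 45233632, so they share few bases. Chid1 starts at 141493136 and Tspan4 ends at 141493427, and Gm10575 ends at 141467771 and Cd151 starts at 141467392. How much of the values of Tspan4, Cd37 and Cd151 is uncertain was not tested.

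Cd63 has a processed copy, Cd63-ps, whose transcript matches Cd63 at 98.0% of aligned bases (841 identical, 17 mismatched, 0 gaps). The copy was at 47.9, 74.0 and 62.3 CPM in aged libraries, against 44.4, 43.6 and 47.3 CPM in young libraries. It stood at 6.69%, 6.82% and 6.77% of the Cd63 level in aged libraries, against 7.01%, 6.99% and 6.71% in young libraries. This ratio was nearly constant over the 6 libraries, and how the authors' counting split reads between Cd63 and its copy was not tested.

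Of the 21 other tetraspanins in the tables, 11 passed the low-count filter and 5 had no count in any library (Tspan1, Tspan10, Tspan11, Tspan12 and Upk1a). By edgeR's quasi-likelihood test 0 of the 11 were called at an adjusted p under 0.05, limma-voom also called 0, and DESeq2 called 0 of the 9 it gave an adjusted p. At an unadjusted p under 0.05, 2 were higher in aged libraries (Tspan31 and Upk1b) and 0 lower, against 5.67% of all genes in either direction. The log2 fold changes were positive for 8 and negative for 3. Their median was 1.43, the value of Tspan13 (SE 0.78), against -0.02 over all genes tested. Several of the 11 were at a low level with wide SEs, such as Tspan32 (3.89, SE 2.59) and Tspan15 (-2.59, SE 2.09). For 3 of the 11 every aged library lay above every young one, against 7.54% of all genes.

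Tspan31, a family member known from gene amplification in human sarcomas, was at 95.4, 260 and 244 CPM in aged libraries, against 73.0, 32.6 and 83.9 CPM in young libraries. The groups did not overlap, with a log2 fold change of 1.66 (SE 0.52, edgeR adjusted p = 0.651). Where they overlap, its reads could not be told from those of Cdk4 on the opposite strand. Cdk4 averaged 67.0 ± 35.7 CPM in aged and 24.4 ± 4.24 CPM in young libraries (SD, n = 3 each).

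Tspan7, which in neurons takes part in AMPA receptor trafficking, was at 99.9, 121 and 128 CPM in aged libraries, against 66.7, 65.5 and 82.9 CPM in young libraries. Again no aged library fell within the young range, with a log2 fold change of 0.70 (SE 0.38, edgeR adjusted p = 0.929). Upk1b, a uroplakin of the bladder lining, measured 51.1, 103 and 35.2 CPM in aged libraries, against 15.8, 2.89 and 0.605 CPM in young libraries, also with no overlap (log2 fold change 3.29, SE 1.15, edgeR adjusted p = 0.725). Tspan13 measured 39.5, 139 and 25.6 CPM in aged libraries, against 38.1, 24.9 and 12.8 CPM in young libraries, and overlapped. The log2 fold change of Tspan13, 1.43, was 0.37 without aged replicate 2. Tspan8, a tetraspanin of epithelia, had 14.3 CPM in aged replicate 1 and no count in aged replicates 2 and 3, against 14.9, 49.8 and 10.2 CPM in young libraries. A count of 0 allows up to 0.113 CPM in any of these libraries.

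Genes of known tetraspanin partners and compartments were taken from 7 lists. Of their 109 genes, 108 were in the tables, 89 were tested, and edgeR's quasi-likelihood test called 0 of them, as it did 0 in each list. At an unadjusted p under 0.05, 10 were higher and 4 lower in aged libraries, where 387 and 218 of all 10661 genes were. The median log2 fold change was 0.23. The DESeq2 Wald test called 5 higher and 2 lower of 86, against 117 and 41 of 9634 genes, and limma-voom called 0.

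The EWI proteins are Ig-superfamily molecules that bind Cd9 and Cd81 directly. Of 4 genes, 3 were tested and 0 passed an unadjusted p under 0.05, against 5.67% of all genes, with a median log2 fold change of 0.61. Igsf8 (EWI-2) averaged 17.7 ± 5.22 CPM in aged and 11.6 ± 14.4 CPM in young libraries (SD, n = 3 each), and Igsf3 averaged 1.41 CPM in aged and 2.55 CPM in young libraries. Igsf8 is annotated in overlap with the opposite strand, so its values are uncertain.

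Among 14 integrin genes, 10 were tested and 0 passed an unadjusted p under 0.05, against 5.67% of all genes, with a median of 0.44. Itgb1, the beta chain that Cd9, Cd81 and Cd151 associate with, averaged 94.6 ± 15.0 CPM in aged and 100.5 ± 17.2 CPM in young libraries (SD, n = 3 each; log2 fold change -0.09). Itgam, which encodes the sort marker CD11b, an integrin alpha chain, averaged 81.3 ± 22.03 CPM in aged and 82.5 ± 15.1 CPM in young libraries (log2 fold change -0.02). The differences of both were far smaller than the spread between libraries, and their signs turned under other settings.

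The list of ADAM sheddases and their substrates held 12 tested genes, with a median of 0.01. At an unadjusted p under 0.05, 2 were higher and 0 lower, where 387 and 218 of all 10661 genes were. Csf1r, the receptor on which macrophages depend for survival, averaged 1207 ± 150 CPM in aged and 1267 ± 260 CPM in young libraries (SD, n = 3 each), a log2 fold change of -0.07 that was 0.19 in TPM. Trem2, a lipid receptor of microglia and macrophages, averaged 480 ± 239 CPM in aged and 207 ± 57.3 CPM in young libraries (log2 fold change 1.21, SE 0.43, edgeR adjusted p = 0.743). Without aged replicate 2 that value was 0.80.

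Immune membrane proteins that associate with tetraspanins, such as class II molecules, Fc receptors and Cd36, made up a list of 21 genes with 17 tested. Of these, 6 were higher and 0 lower at an unadjusted p under 0.05, where 387 and 218 of all 10661 genes were. Their median was 0.67, and 5 had every aged library above every young one, against 7.54% of all genes. Cd74, the invariant chain of class II molecules, averaged 9727 ± 4032 CPM in aged and 2348 ± 539 CPM in young libraries (SD, n = 3 each), with a log2 fold change of 2.05 (SE 0.37, adjusted p = 0.378 by edgeR). Fcgr3, an activating IgG receptor, averaged 2866 ± 320 CPM in aged and 1806 ± 473 CPM in young libraries (log2 fold change 0.67, SE 0.29, edgeR adjusted p = 0.861). DESeq2 called 4 of the 17 higher, against 117 of 9634 genes. They were Cd74 and the class II chains H2-Aa, H2-Ab1 and H2-Eb1, which were named after their values were seen.

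The machinery that forms and releases extracellular vesicles is the pathway most often linked to Cd81, Cd9 and Cd63. Of 25 genes, 24 were tested, and the median was 0.18. At an unadjusted p under 0.05, 1 was higher and 1 lower, where 387 and 218 of all 10661 genes were, and nothing is read from these counts. Hspa8, a chaperone carried in vesicles, averaged 1324 ± 291 CPM in aged and 548 ± 164 CPM in young libraries (SD, n = 3 each), with a log2 fold change of 1.27 (SE 0.34, adjusted p = 0.599 by edgeR). DESeq2 (adjusted p = 0.0418) and edgeR with no low-count filter (adjusted p = 0.0313) called Hspa8 higher. Chmp2a, a subunit of the ESCRT-III complex that cuts vesicles off, averaged 377 ± 139 CPM in aged and 523 ± 117 CPM in young libraries (log2 fold change -0.47, and -0.19 without aged replicate 2).

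Genes of late endosomes and lysosomes, where Cd63 resides, had 16 of 19 tested and a median of 0.14. At an unadjusted p under 0.05, 1 was higher and 0 lower, where 387 and 218 of all 10661 genes were, and nothing is read from these counts. Cd68, a lysosomal membrane protein of macrophages, averaged 1239 ± 376 CPM in aged and 724 ± 93.7 CPM in young libraries (SD, n = 3 each), with a log2 fold change of 0.78 (SE 0.32, adjusted p = 0.817 by edgeR). Vamp8, a fusion protein of late endosomes, averaged 978 ± 386 CPM in aged and 1520 ± 109 CPM in young libraries (log2 fold change -0.64, SE 0.35, and -0.34 without aged replicate 2).

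Macrophage fusion genes were the only list with a negative median, -0.81 over 7 tested of 14 genes. At an unadjusted p under 0.05, 0 were higher and 3 lower, and 4 had every aged library below every young one, against 218 of 10661 genes lower and 7.19% with no overlap in that direction. Ccl2, a monocyte-attracting chemokine, averaged 157 ± 60.2 CPM in aged and 594 ± 304 CPM in young libraries (SD, n = 3 each), with a log2 fold change of -1.92 (SE 0.48, adjusted p = 0.546 by edgeR). Cd200r1, the inhibitory receptor for CD200, averaged 43.3 ± 19.3 CPM in aged and 195 ± 141 CPM in young libraries (log2 fold change -2.17, SE 0.60, edgeR adjusted p = 0.619). DESeq2 (adjusted p = 0.0134 for Ccl2 and 0.0353 for Cd200r1) and edgeR with no low-count filter (0.00112 and 0.025) called both lower.

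**Figure D4:**
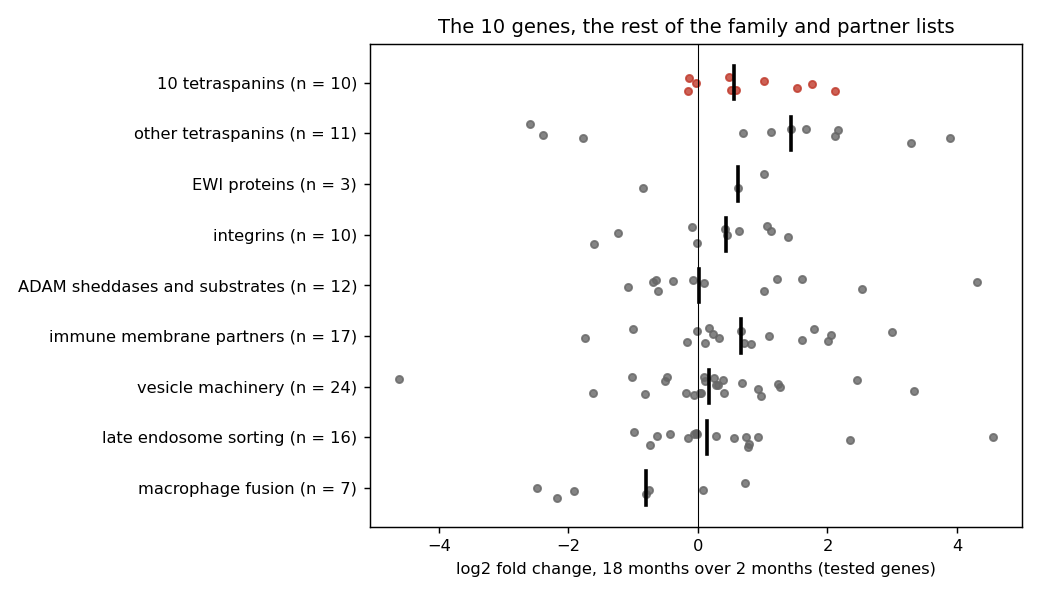
Log2 fold change, 18 months over 2 months (x axis), of each tested gene (points) in the 10 tetraspanins, the other tetraspanins and the 7 partner lists (rows), with the median as a black bar. The medians run from -0.81 for macrophage fusion to 1.43 for the 11 other tetraspanins, with 0.55 for the 10 genes.

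Over the 6 libraries, Serpine2, a protease inhibitor gene, and Tmem173, which encodes the DNA sensor adaptor STING, were among the 3 genes whose pattern was closest to Cd81 out of 2175 candidates. Closeness was the root mean square difference in log2 CPM after centring each gene on its mean, and it was 0.25 for both, against a median of 1.27 over the candidates. Serpine2 measured 101.8, 307 and 97.9 CPM in aged libraries, against 27.2, 39.2 and 47.5 CPM in young libraries. Tmem173 measured 187, 486 and 386 CPM in aged libraries, against 66.5, 100.3 and 94.1 CPM in young libraries. Like Cd81, both were highest in aged replicate 2, and no aged library lay within the young range. The closest member to Cd81 was Cd9, at 0.80.

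For Cd9 the closest genes were H2-Ab1, a class II chain (0.18), Copz1, a coatomer subunit (0.28), and Lair1, an inhibitory collagen receptor (0.28). The closest member was Tspan14, at 0.80. For Cd63 they were its own copy Cd63-ps (0.029), then the glycolytic gene Gapdh (0.11) and the membrane protein gene Itm2b (0.11), and the closest member was Cd53, at 0.47. The candidates share libraries and depth with the members, and the order is a description of these 6 libraries only.

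Summed markers of several cell types are set beside these values, and they did not all run in the same direction. The 13 microglial markers, all detected in every library, summed to 11272, 19064 and 15063 CPM in aged libraries, against 7719, 5979 and 8527 CPM in young libraries. For 9 of the 13 every aged library was above every young one. This held for 7.54% of all genes tested and 11.2% of those averaging 50 CPM or more. The list holds Trem2, named above. P2ry12, a defining microglial receptor, was at 1506, 3306 and 3132 CPM in aged libraries, against 1239, 829 and 1315 CPM in young libraries. Tmem119, another, was at 102, 268 and 104 CPM in aged libraries, against 75.8, 52.6 and 53.9 CPM in young libraries.

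The 15 border macrophage markers ran the other way, with sums of 17106, 8788 and 14734 CPM in aged libraries, against 26015, 28135 and 24697 CPM in young libraries. For 6 of the 15 every aged library was below every young one, against 7.19% of all genes tested. For 1 every aged library was above, against 7.54%. Aged replicate 2, which had the most Cd81, had the highest microglial and the lowest border macrophage sum. The part of microglia in the values of Cd81, Cd9 and Cd82 was not tested.

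**Figure D5:**
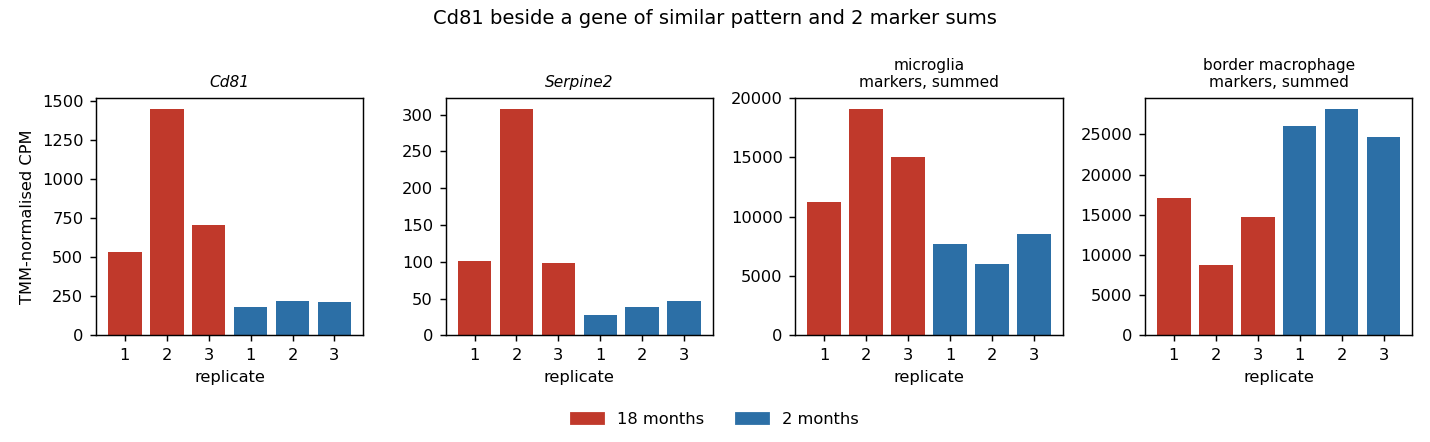
TMM-normalised CPM (y axes, a separate scale per panel) of Cd81, of Serpine2, a gene of similar pattern, and of the summed microglial and border macrophage markers, in 3 aged and 3 young libraries (x axes, by replicate). Cd81, Serpine2 and the microglial sum peak in aged replicate 2 at 1447, 307 and 19064 CPM, where the border macrophage sum is lowest at 8788 CPM.

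Markers of 2 other glial types were also higher in every aged library, at a low level. The 8 oligodendrocyte markers summed to 296, 203 and 424 CPM in aged libraries, against 157, 186 and 157 CPM in young libraries, with Opalin at 0 in all. The 6 astrocyte markers summed to 113, 61.8 and 174 CPM in aged libraries, against 42.4, 39.4 and 50.7 CPM in young libraries. Blood cell markers were high in several libraries. The 10 neutrophil markers summed to 21468, 7799 and 23.6 CPM in aged libraries, against 37529, 11904 and 14436 CPM in young libraries, and the groups overlapped. The 7 erythroid markers summed to 9816, 9032 and 85.4 CPM in aged libraries, against 13726.5, 10052.5 and 30170 CPM in young libraries, with each aged sum below the young ones. B cells, in which Cd37, Cd53 and Cd81 are prominent, gave marker sums of 194, 235 and 213 CPM in aged libraries, against 162, 164 and 203 CPM in young libraries. Platelets, rich in Cd9, gave sums of 7.26 to 26.6 CPM in aged and 1.15 to 26.6 CPM in young libraries, with Treml1 and Tubb1 at 0 in all. Their part in the tetraspanin values was not tested.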

How the data were processed

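RNA from sorted CAMs was reverse transcribed and amplified over 13 PCR cycles with a kit for ultra-low input and sequenced as single reads, per the labels' protocols. Per the submitters' processing notes, the tools were bcl2fastq 2.20, FastQC, fastp, Picard and DRAGEN, and the build mm10. What each did, and with which annotation, is not given in the sources used here. The deposited tables hold, per the file headers, estimated counts per gene, TPM (scaled by length and depth by the authors), and abundance-weighted transcript lengths, which are used as another descriptive value.

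Identifiers were matched without version to GENCODE M21 (35513 of 35598 matched), which gave symbols and coordinates. Promoter sequences came from RefSeq (GRCm38.p6, 10 of 10 members matched). Estimated counts, of which 90.2% to 92.9% were whole, were rounded. They were scaled to CPM by TMM and tested with edgeR 4.0.16 in R 4.3.3 (filterByExpr, robust quasi-likelihood test, no covariate, Benjamini-Hochberg adjustment over 10661 genes, threshold 0.05). The code was tested on simulated data. Each SE was worked back from the F statistic, dividing the size of the log2 fold change by the root of F. Zero counts were bounded by 3 counts per library, or 0.0901 to 0.113 CPM, which covers counting error only, since PCR copies are not independent molecules.

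The members and gene lists were chosen with earlier results of these data known. Named were the 10 members, the 5 most abundant other tetraspanins, the 2 most abundant genes of each partner list with no call, and the 3 genes closest to Cd81, Cd9 and Cd63 among those of at least 50 CPM. Other genes were named after their values were seen. Some genes and overlaps that these rules took are not reported here. Alternatives were DESeq2 1.42.0, limma-voom (limma 3.58.1), TPM (log2(TPM + 1), limma-trend), other filters and scalings, a replicate block and leaving out each library.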

Additional observations from a re-analysis of the deposited data

How the results depend on the processing

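The directions of Cd81, Cd9, Cd63, Cd37, Cd82, Tspan3 and Tspan14 held under each alternative in which they were tested, while Cd53, Cd151 and Tspan4, all near 0, did not hold theirs. Counts of calls did not hold. Against 1 gene called higher and 0 lower over all genes, the DESeq2 Wald test called 117 and 41, edgeR with no low-count filter 51 and 11, and edgeR on genes of at least 50 CPM 19 and 6. Limma-voom called 0 (936 genes at an unadjusted p under 0.05), as it did given library quality weights (954 genes). With 1 library left out the counts were 0 to 2 higher and 0 to 1 lower. Of the 10 members, 0 were called, against 0.00938% of all genes. DESeq2 called 1 (Cd81), against 1.64%, and the filter at 50 CPM 1 of 6 (Cd81), against 1.14%. With no filter 2 were called (Cd81 and Cd9), where 51 higher and 11 lower of 22680 genes were. Leaving out a library called 0 to 0. The same contrast chose the members, so nothing is read from these counts. Of the partner genes, DESeq2 called 7 of 86, no filter 7 and the filter at 50 CPM 5 of 50, beside the same shares over all genes. Leaving out a library again gave 0 to 0. The other tetraspanins had 0 calls under every setting. Members in which every aged library lay above every young one numbered 4 of 10, against 7.54% of all genes tested. They numbered 3 in CPM without TMM scaling and 3 in TPM, where Cd63 overlapped, and 4 to 7 with a library left out. The share over all genes was not computed for these other settings, and these counts were added after seeing the data. The cause of these differences was not tested.

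Itgb1 turned sign in TPM (0.0229) and at 50 CPM (0.0029), with -0.21 to 0.0594 over left-out libraries. Itgam turned sign with quality weights (0.0259), in TPM (0.57), with no filter (0.0085) and at 50 CPM (0.0818), with -0.24 to 0.15. Csf1r turned sign in TPM (0.19), with -0.21 to 0.0714, and Igsf3 ranged from -1.34 to 1.06. In the TPM fit the median over all genes was itself 0.22, against -0.02 in the fit used throughout. Left-out libraries gave 1.59 to 2.39 for Cd81, 1.14 to 2.00 for Cd9 1.31 to 3.46 for Cd82, 0.65 to 1.46 for Cd37, 0.073 to 1.06 for Tspan3 and 0.088 to 0.94 for Tspan14.

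Whether shared replicate numbers mark pairs is not in the labels. Deviations from the group mean correlated at -0.0093, -0.024 and 0.022 for same-numbered libraries, and between -0.023 and 0.032 for others. These deviations sum to 0 within each group of 3, so the correlations cannot exclude a pairing. With a replicate block the log2 fold change was 1.98 for Cd81, 1.70 for Cd9 and 2.53 for Cd82, and 538 genes had an unadjusted p under 0.05, against 605 without it.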
